A study of Mus musculus with 2 samples.

Results

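Il1rl1, Gata3, Areg, Il10, Prdm1, Nfil3, Ahr, Pparg and Rora are genes known from regulatory T cells that live in tissues and take part in repair. They were picked out by their GENCODE M21 symbols and are 9 of 55536 GENCODE genes in the large gene tables, 9 of 22195 matched genes in the small count tables, and the source of 34 of 141862 annotated transcripts. The study sequenced polyadenylated RNA of mouse regulatory T cells that had been through inflammation. These were primary cells of males aged 7 weeks, traced in the labels to activated regulatory T cells. The labels name no strain, allele, inflammatory agent, tissue or cell sort, and do not say whether animals were pooled. Per the labels, all data come from 1 biological replicate, from which there were 2 technical libraries (library 1 and library 2). No condition was compared, and an SD here (n = 2) is the difference between libraries labelled as 1 biosample and not a spread between animals.

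Regulatory T cells hold immune responses in check, and the factor Foxp3 defines them. In fat, muscle, skin, lung and gut some of them also help injured tissue to heal. Such cells carry ST2, the receptor for interleukin-33, an alarmin released by damaged cells, and can secrete amphiregulin, a growth factor for epithelium, and the anti-inflammatory cytokine interleukin-10. Gata3, Blimp-1 (Prdm1), Nfil3, Rora, the aryl hydrocarbon receptor and Pparg are transcription factors linked to these cells in one tissue or another.

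The sequences of 3 genes are shown first, because their start sites differ in letters known to bind transcription factors. They come from RefSeq (GRCm38.p6), whose promoter table held 7 of the 9 genes with 10 start sites, and each is the 250 bases before a start. Il1rl1 has a distal and a proximal start. Capitals mark GATAA or GATAG after an A or a T, on either strand, the letters that GATA factors bind.
Il1rl1 distal start, chr1:40429320-40429569, plus strand: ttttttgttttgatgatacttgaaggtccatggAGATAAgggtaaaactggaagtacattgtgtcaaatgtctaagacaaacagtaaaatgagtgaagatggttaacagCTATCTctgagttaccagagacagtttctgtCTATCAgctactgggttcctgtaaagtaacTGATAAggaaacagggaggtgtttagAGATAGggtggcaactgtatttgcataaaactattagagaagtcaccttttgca
Il1rl1 proximal start, chr1:40439379-40439628, plus strand: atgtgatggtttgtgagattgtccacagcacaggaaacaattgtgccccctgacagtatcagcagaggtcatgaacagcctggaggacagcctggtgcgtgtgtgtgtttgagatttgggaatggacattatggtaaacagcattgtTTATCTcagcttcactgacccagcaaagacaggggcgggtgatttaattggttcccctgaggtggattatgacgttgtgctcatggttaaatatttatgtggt
The distal window held 5 matches, which began 217, 141, 110, 80 and 54 bases before the start. The proximal window held 1, which began 103 bases before it. Of 32851 mouse windows of this length, 26.5% held at least 1 match, and 14 windows (0.0426%) held 5 or more. Of the other 8 windows, only that of Rora held a match. Such a match describes letters and is not a measured binding site.

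Areg and Pparg follow. In Areg, capitals mark TGACGTCA, the cyclic AMP response element. In Pparg, capitals mark TTNNGCAA on either strand, letters bound by C/EBP factors, which take part in fat cell formation. The first Pparg window precedes a start near those of Pparg-204 and Pparg-206, and the second precedes the start of Pparg-201, the transcript with the longer coding sequence.
Areg, chr5:91139349-91139598, plus strand: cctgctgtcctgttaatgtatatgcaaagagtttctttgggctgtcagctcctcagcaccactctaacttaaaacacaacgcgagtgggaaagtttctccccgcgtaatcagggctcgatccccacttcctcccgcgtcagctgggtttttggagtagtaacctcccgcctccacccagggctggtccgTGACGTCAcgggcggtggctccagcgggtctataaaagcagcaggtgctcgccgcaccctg
Pparg upstream start, chr6:115362099-115362348, plus strand: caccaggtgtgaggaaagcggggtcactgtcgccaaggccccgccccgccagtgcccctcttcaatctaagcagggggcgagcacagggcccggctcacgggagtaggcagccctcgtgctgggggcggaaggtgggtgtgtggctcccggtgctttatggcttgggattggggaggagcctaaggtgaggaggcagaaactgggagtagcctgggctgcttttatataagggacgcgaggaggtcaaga
Pparg start of the longer form, chr6:115421816-115422065, plus strand: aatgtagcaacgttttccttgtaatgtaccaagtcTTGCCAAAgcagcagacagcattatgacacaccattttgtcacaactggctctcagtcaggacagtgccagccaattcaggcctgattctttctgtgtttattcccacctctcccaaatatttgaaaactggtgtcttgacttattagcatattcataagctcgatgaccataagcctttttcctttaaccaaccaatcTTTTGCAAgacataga
The Areg element began 61 bases before the start, and 1.55% of all windows held one. The longer-form window of Pparg held 2 C/EBP matches, and neither the upstream window nor a further one near the start of Pparg-202, not printed, held any, against 9.56% of all windows with at least 1. The distal Il1rl1 window held 1 C/EBP match as well. Neither TNGCGTG, the core bound by the aryl hydrocarbon receptor (4.1% of all windows), nor TTANGTAA, letters bound by Nfil3 (2.06%), was found in the 10 windows. No match overlapped another. The motifs shown were chosen with these sequences in view.

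Library 1 had 26593267 expected counts in GENCODE genes, and library 2 had 22036331. All 8 regulatory T cell markers were present at 1 TPM or more in both libraries, with Foxp3 at 87.27 TPM in library 1 and 87.39 TPM in library 2, where TPM is an abundance per transcript length, scaled to the same total in each library. Markers of other cells set the libraries apart. The 6 erythroid markers summed to 8494 and 94.7 TPM and were all at least 2-fold higher in library 1, and the 11 macrophage markers summed to 10.98 and 96.3 TPM and were all at least 2-fold higher in library 2. Whether libraries that differ this much in other cells came from 1 and the same cell preparation was not tested, and each SD and ratio below includes such differences.

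The levels were compared first. A gene counted as detected when both libraries reached 1 TPM. This held for 8 of the 9 genes, against 24.7% of all GENCODE genes and 49.1% of protein-coding genes. The exception, Areg, passed in library 2 alone. The median of the 9 means was 16.7 TPM, against 21.3 TPM over all detected genes and 29.9 TPM over detected protein-coding genes. Gata3 alone made up 51.3% and 50.5% of their summed TPM, which was 207 and 245. In bulk RNA, fewer cells that express a gene and less of its RNA per cell cannot be told apart.

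**Figure D1:**
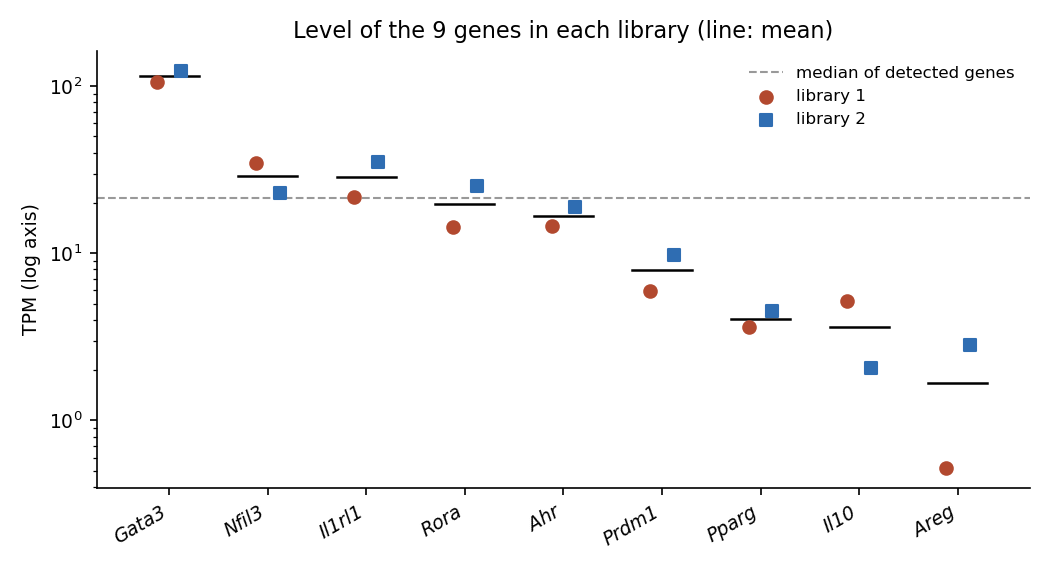
TPM of the 9 genes on a log axis, with circles for library 1, squares for library 2, short lines for means and a dashed line for the median of detected genes. Gata3 is above 100 TPM in both libraries, and Areg has the one value under 1 TPM.

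Il1rl1, the gene of ST2 (chr1:40429570-40465415, plus strand, mm10), had 21.65 TPM in library 1 and 35.2 TPM in library 2. The mean was 28.4 ± 9.58 (SD, n = 2), which ranked at the 56.6 percentile among detected genes. Both values lay near the middle of the range of detected genes, with library 2 higher.

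Gata3 (chr2:9857078-9890034, minus strand), which directs type 2 helper T cells and supports Foxp3 in regulatory T cells, was the highest of the 9. It had 106.08 TPM in library 1 and 123.77 TPM in library 2, a mean of 115 ± 12.5 at the 87.8 percentile. No other value of the 9 genes came near it. Genes that overlap the locus held few counts beside its 5494 expected counts in library 1 and 5058 in library 2: on the same strand 9230102O04Rik had 33.45 and 24.57, and on the opposite strand 4930412O13Rik had 11.88 and 4.59 and Gm13256 had 15.33 and 16.03.

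Nfil3 (chr13:52967209-52981073, minus strand), a leucine zipper repressor of the circadian circuit that innate lymphoid cells need, had 34.66 TPM in library 1 and 23.04 TPM in library 2 (mean 28.9 ± 8.22). It was higher in library 1. Rora (chr9:68653786-69388246, plus strand), a nuclear receptor known from skin regulatory T cells, had 14.3 TPM in library 1 and 25.19 TPM in library 2 (mean 19.7 ± 7.70). Ahr (chr12:35497974-35535038, minus strand), the receptor for indoles and dioxins, prominent in the gut, had 14.61 TPM in library 1 and 18.87 TPM in library 2 (mean 16.7 ± 3.01). The ranges of Nfil3 and Il1rl1, of Il1rl1 and Rora, and of Rora and Ahr overlapped. Within each library Il1rl1 was above Rora. The order of Nfil3 and Il1rl1, and that of Rora and Ahr, differed between the libraries and is not set here. An opposite-strand gene at the Ahr locus, Gm48236, had 27.16 and 19.75 expected counts.

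Prdm1 (chr10:44437177-44528501, minus strand) encodes Blimp-1, a repressor that marks effector regulatory T cells. It had 5.96 TPM in library 1 and 9.83 TPM in library 2 (mean 7.89 ± 2.74), with no value in common with the range of Ahr above it or of Pparg below it. Pparg (chr6:115360951-115490399, plus strand), the master regulator of fat cells and of regulatory T cells in visceral fat, had 3.6 TPM in library 1 and 4.49 TPM in library 2 (mean 4.04 ± 0.629).

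The secreted factors had the lowest means. Il10 (chr1:131019845-131024974, plus strand) had 5.21 TPM in library 1 and 2.05 TPM in library 2 (mean 3.63 ± 2.23), and Areg (chr5:91139599-91148432, plus strand) had 0.52 TPM in library 1 and 2.84 TPM in library 2 (mean 1.68 ± 1.64). The libraries went opposite ways in them, with Il10 higher in library 1 and Areg higher in library 2. The ranges of Pparg and Il10 overlapped, and so did those of Il10 and Areg. The mean of Gata3 was 68.4 times that of Areg.

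With 2 libraries, many genes share a pattern. The nearest protein-coding gene on log2(TPM + 1) was Wdr5 for Il1rl1, Psmc2 for Gata3, Ly75 for Nfil3, Fam210b for Rora, Apex2 for Ahr, Klf11 for Prdm1, Zfp109 for Pparg, Tstd1 for Il10 and Zik1 for Areg. Klf11 was closest of all, at 5.96 and 9.84 TPM. Within a Euclidean distance of 0.1 lay 6 genes for Il10 and up to 55 for Gata3.

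The transcripts behind these levels were read next. Areg, Il10 and Nfil3 have 1 annotated transcript each. Of the other 6 genes, 5 had the same leading transcript in both libraries, by TPM and by expected counts, and Pparg did not. Of the 34 transcripts, 28 had counts in a library. How the reads of shared exons were divided among transcripts is an estimate.

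Il1rl1 gives a membrane receptor and a shorter, soluble decoy that binds interleukin-33. Transcripts with 567 codons, the membrane form, summed to 16.5 TPM in library 1 and 28.3 TPM in library 2, and those with 337 codons, the soluble form, which lack the last 3 exons, to 5.14 and 5.88. The membrane form led in both libraries, with 76.2% and 80.4% of TPM, and was 3.21 and 4.81 times the soluble form. In expected counts, which also grow with length, these ratios were 9.57 and 11.6.

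The leading transcript, Il1rl1-201, had 11.95 and 24.47 TPM, and begins at the exon that is second in Il1rl1-202, downstream of both windows shown. Il1rl1-205, which begins at the distal start with 5 GATA matches, had 3.25 and 2.12 TPM from 62.95 and 33.56 expected counts. Il1rl1-202 and Il1rl1-203, which begin near the proximal start, had 4.55 and 3.84 TPM and 1.89 and 3.76 TPM. The annotated distal transcript thus had less TPM than these 2 together in both libraries. It has 337 codons, and no transcript of 567 codons is annotated from the distal start. These TPM values therefore do not measure how much each start was used. Il1rl1-204, of 65 codons, had 0 and 4.47 expected counts.

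**Figure D2:**
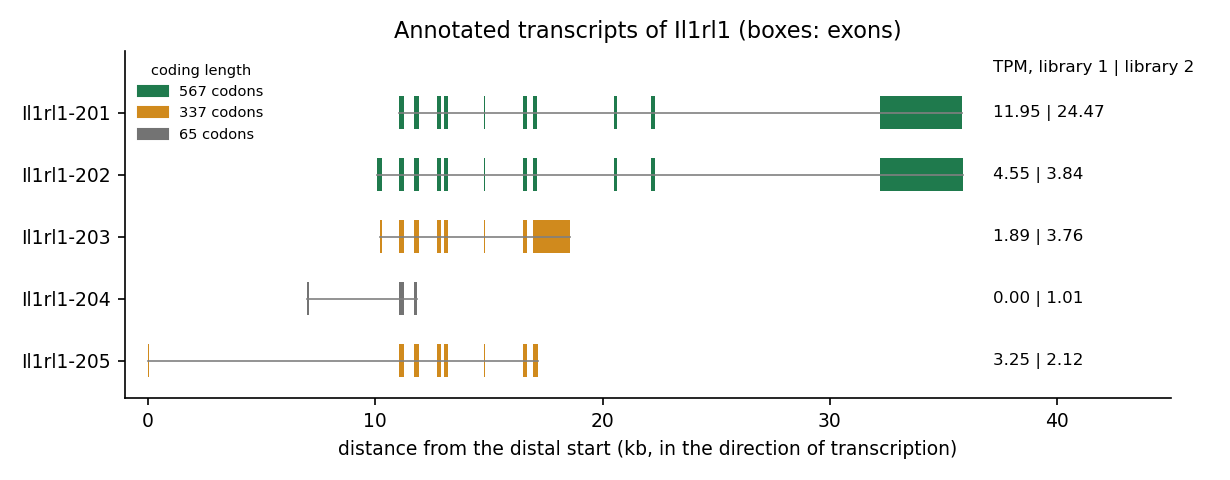
Exons of the 5 annotated Il1rl1 transcripts as boxes, in kb from the distal start and coloured by coding length, with TPM of library 1 and library 2 at the right. Il1rl1-205 alone begins at the distal start, and the long last exon is in both transcripts of 567 codons only.

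Rora was led by Rora-202, of 467 codons, at 12.65 and 22.08 TPM, ahead of Rora-201, of 523 codons, at 1.66 and 2.19 TPM. The shorter form held 88.4% and 87.7% of TPM but 64.2% and 69.7% of expected counts. Rora-201 is 10878 bases long and Rora-202 2591, with starts 635896 bases apart. Rora-201 also ends 8437 bases further downstream, and the division of reads between them rests on these annotated ends. Both measures put Rora-202 first in both libraries.

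Pparg differed most between the libraries. The 475-codon form, gamma 1, had 50.9 expected counts in library 1 and 61.0 in library 2. The 505-codon form, gamma 2, known mainly from fat cells, had 0 and 35.56. It starts at the second Pparg window shown, the one with 2 C/EBP matches. By TPM the leader in library 1 was Pparg-203, a retained-intron fragment of 213 bases that took 51.06% of the gene's TPM from 5 expected counts. The 6 fat cell or stroma markers summed to 0.17 and 3.64 TPM, led by Col1a1 (0.13 and 2.89), with Adipoq at 0 counts in both libraries. Their part in the gamma 2 counts was not tested.

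Gata3, Ahr and Prdm1 were each led by 1 full coding transcript. Gata3-201 held 98.32 and 94% of TPM. Ahr-202 held 85.97 and 73.88%, with 11.01 and 21.87% in the retained-intron transcript Ahr-203. Prdm1-201, of 856 codons, held 77.8 and 82.67%, and Prdm1-202, of 823 codons, had 53.64 and 16.71 expected counts.

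**Figure D3:**
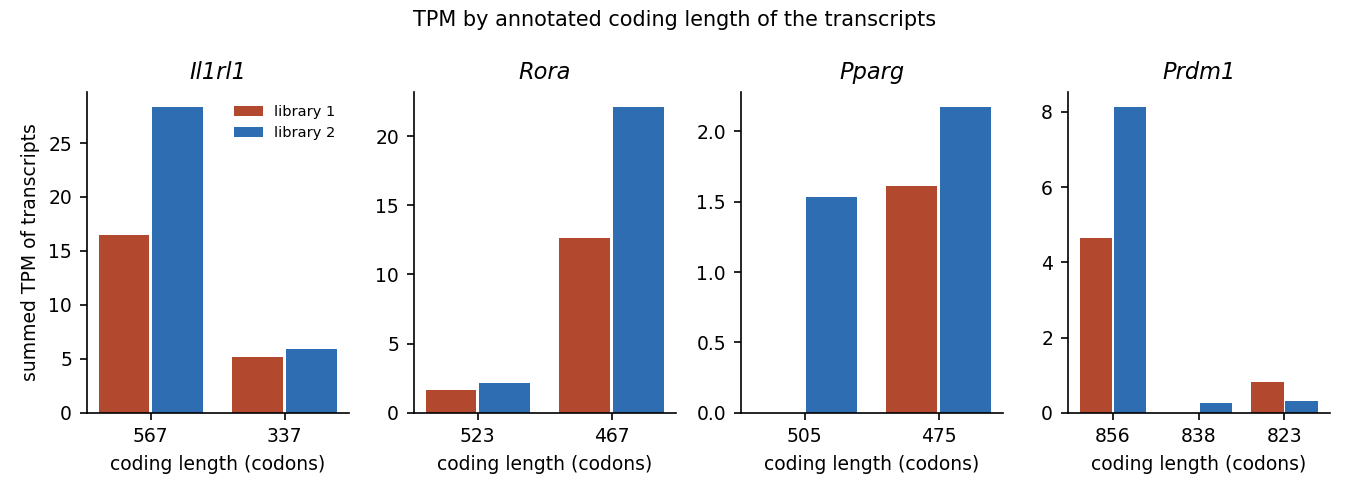
Summed TPM of transcripts by annotated coding length for 4 genes, with library 1 left of library 2 in each pair and its own axis for each gene. The 567-codon form of Il1rl1 and the 467-codon form of Rora lead in both libraries, and the 505-codon form of Pparg is listed at 0 in library 1.

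The difference between the libraries was tested last. Rounded expected counts were compared by a 2-sided exact binomial test over 24253 genes with at least 10 counts, with Benjamini-Hochberg adjustment, and a gene was called at an adjusted p under 0.05 and 2-fold or more. The test compares these libraries and no conditions, and covers counting error of reads alone. Reads copied by PCR are not separate molecules, so its p-values can be too small and the intervals below too narrow. Of the 9 genes 3 were called, against 39.3% of all genes tested. Among detected genes, which leave out Areg, 10.5% were called, Il10 and Pparg among them. Il10 was higher in library 1 (8.33% of genes tested), and Areg and Pparg were higher in library 2 (31.0%). On the adjusted p alone all 9 passed, against 70.3%, with 2 higher in library 1 (against 23.9%) and 7 higher in library 2 (against 46.4%). In the small count table, where 24.3% of genes were called and 54.3% passed on the adjusted p alone, 2 and 8 of the 9 did.

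Areg differed most. Its 10 expected counts in library 1 and 45 in library 2 gave a log2 ratio of library 1 over library 2 of -2.39 (95% interval -3.60 to -1.43; adjusted p = 1.2e-07, exact binomial test), 5.23-fold higher in library 2. The small table, with 8 and 43 counts, gave -2.54. Pparg had 57 expected counts in library 1 and 106 in library 2, a log2 ratio of -1.16 (95% interval -1.66 to -0.69; adjusted p = 1.6e-06, exact binomial test), and -1.01 from 46 and 82 counts in the small table. Both kept their call there. The call of Pparg rests on counts, since its TPM values of 3.6 and 4.49 differed by less than 2-fold.

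Il10 ran the other way. Its 109 expected counts in library 1 and 35 in library 2 gave a log2 ratio of 1.35 (95% interval 0.81 to 1.96; adjusted p = 7.2e-07, exact binomial test). In the small table, with 69 and 42 counts, the ratio was 0.53 and the call was lost (adjusted p = 0.0968, exact binomial test). Nfil3 was the other gene higher in library 1, by 1.52-fold, with log2 ratios of 0.61 in the large table and 0.66 in the small one.

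The other 5 genes were under 2-fold, all higher in library 2. Il1rl1, with 1534 expected counts in library 1 and 2106 in library 2, had a log2 ratio of -0.73, Prdm1 -0.68 and Rora -0.67. Gata3 (-0.15) and Ahr (-0.17) differed least, and no longer passed the adjusted p with TMM factors (0.167 and 0.378) or DESeq2 size factors (0.842 and 0.737). Those factors moved the median log2 ratio of detected genes to 0.10 and 0.14, from -0.01 with library totals. None of the 9 genes changed direction. The median of the 9 log2 ratios was -0.67, against -0.23 over all genes tested.

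**Figure D4:**
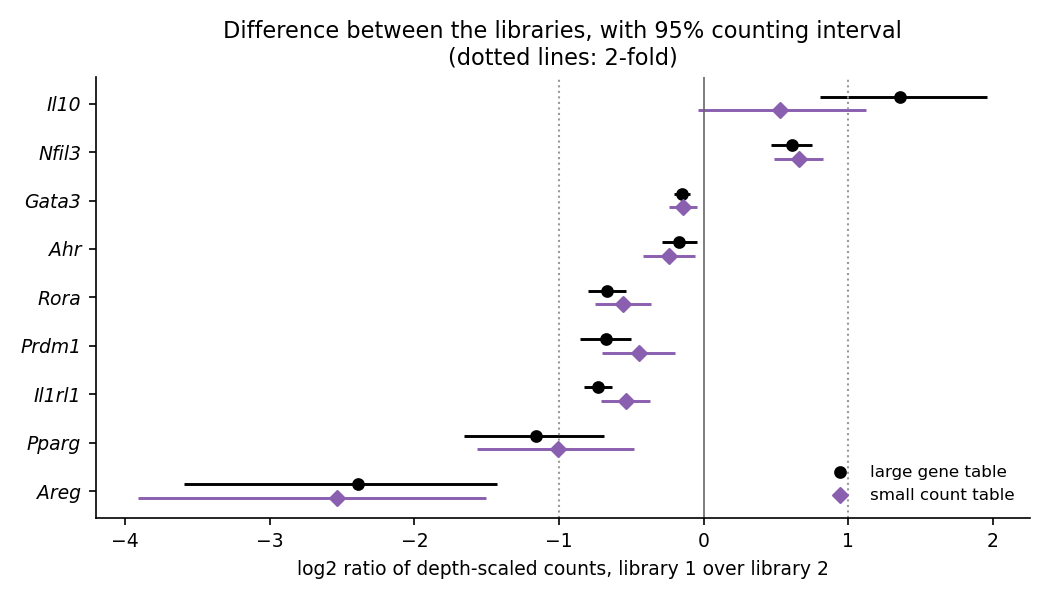
Log2 ratio of depth-scaled counts, library 1 over library 2, with circles for the large gene table, diamonds for the small count table and bars for 95% counting intervals. Areg and Pparg lie beyond the left 2-fold line in both tables, and Il10 lies beyond the right one in the large table only.

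Other cells express some of these genes, and their markers are given beside the differences. Macrophages can express Pparg and Ahr. Of their 11 markers 4 were detected. The highest mean was that of C1qa (3.47 and 15.4 TPM), although C1qb (1.1 and 17.45) and Vcam1 (0.75 and 17.75) exceeded it in library 2, and C1qc, Spic and Cd5l had 0 counts in library 1. Mast cells and basophils can express Il1rl1 and Areg. None of their 9 markers was detected in both libraries, and they summed to 1.42 and 14.5 TPM. Kit had 1 and 437 counts, Prss34 0 and 37, Hdc 48 and 56, Cpa3 0 and 5, and Tpsb2 0 in both libraries. Of the 3 markers with enough counts to test, Kit and Prss34 were called higher in library 2, against 31.0% of all genes tested. The part of these cells in the results was not tested.

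Group 2 innate lymphoid cells express Il1rl1, Gata3, Rora and Areg. Of their 6 markers 3 were detected, and they summed to 26.2 and 19.7 TPM, led, as in the other lists, by the gene with the highest mean, Il9r (13.87 and 8.58). The other markers detected were Il17rb (9.04 and 7.26) and Hpgds (3.34 and 2.87). The cytokine genes of the list were near 0, with Il5 at 0 and 1 counts and Il13 at 0 and 5. The part of group 2 innate lymphoid cells in the results was not tested. Plasma cells need Prdm1, and their 5 markers, 2 of them detected, summed to 9.47 and 10.6 TPM, led by Irf4 (4.78 and 5.08), which T cells express too. B cell markers, 5 of 6 detected, summed to 602 and 548 TPM, led by Ighm (447.22 and 436.4), and erythroid markers were led by Hba-a2 (2993 and 29.33). Dendritic cell markers, 3 of 6 detected, summed to 7.56 and 6.03 TPM, led by Xcr1 (2.41 and 2.24), and natural killer cell markers, 3 of 6 detected, to 10.4 and 22.8 TPM, led by Tyrobp (4.21 and 13.55), with Klra8 at 0 counts. The regulatory T cell list was led by Cd3e (1122 and 1046).

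**Figure D5:**
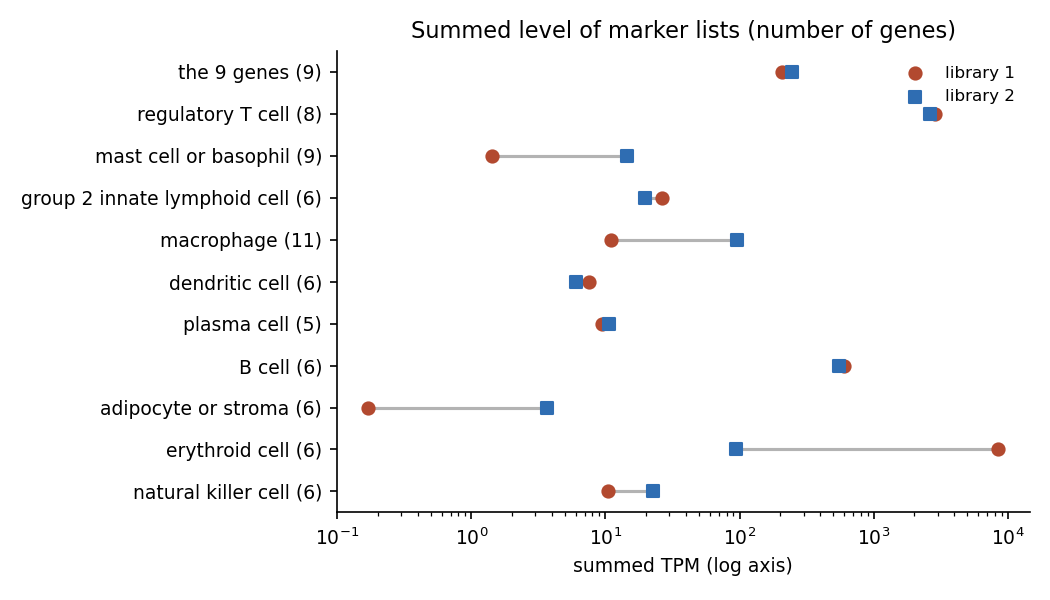
Summed TPM of each marker list and of the 9 genes on a log axis, with circles for library 1, squares for library 2 and gene numbers in brackets. The sums of the regulatory T cell markers and of the 9 genes differ little between libraries, with Gata3 the largest part of the sum of the 9, while the erythroid sum is higher in library 1 and the macrophage sum is higher in library 2.

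Partners of the 9 genes were read from 9 lists, with TPM of library 1 and then library 2 in brackets and the leading genes taken by mean TPM. Calls in every list stand beside 8.33% of all genes tested called higher in library 1 and 31.0% in library 2. Among detected genes, 10.5% were called in either direction. For ST2 signalling 12 of 13 genes were detected, led by the kinase Irak1 (192.59 and 156.49) and the inhibitory receptor Sigirr (146.67 and 168.84), with the co-receptor Il1rap at 21.14 and 11.3. The 1 gene called, higher in library 2, was Il33 itself, at 0 and 19 counts. Of the 13 growth factor genes around amphiregulin 3 were detected, the sheddases Adam10 (58.89 and 80.13) and Adam17 (49.61 and 43.35) and Rhbdf2 (16.15 and 19.14), a cofactor of Adam17. No ligand was detected in both libraries and Epgn had 0 counts. In that list 3 genes were called higher in each library, with Areg, Hbegf (7 and 69 counts) and Egf (16 and 235) higher in library 2, and Btc (25 and 0), Rhbdf1 (21 and 0) and the receptor Egfr (43 and 14) higher in library 1. In TPM Egfr had the other direction, at 0.26 and 0.54.

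Of 13 GATA factors and type 2 partners 10 were detected, led by the adaptor Ldb1 (212.07 and 243.46) and by Stat6 (192.66 and 191.86), which relays interleukin-4. The 2 called, both higher in library 2, were Gata6 (3 and 16 counts) and Tbx21 (10.25 and 40.83 TPM), the factor of type 1 responses. Of 11 genes of the aryl hydrocarbon receptor pathway 7 were detected, led by the chaperones Hsp90ab1 (918.26 and 863.98) and Hsp90aa1 (447.15 and 368.92). Its partner Arnt had 41.57 and 41.43 TPM and its target Tiparp 21.09 and 23.49. The targets Cyp1a1 (42.89 and 0 counts) and Nqo1 (51 and 5) were called higher in library 1, and Cyp1b1 (0 and 10) and the repressor gene Ahrr (2 and 50) higher in library 2.

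Of 17 PPAR receptors, partners and targets 11 were detected, led by the corepressor Ncor1 (333.16 and 314.84) and the heterodimer partner Rxrb (70.31 and 80.33). The sister receptor Ppard was the 1 gene called higher in library 1 (132 and 25 counts), and 6 of the 17 were called higher in library 2 (against 31.0% of all genes tested), among them Pparg, the fatty acid carrier Fabp4 (0 and 31 counts) and the scavenger receptor Cd36 (36 and 94). The targets with the highest mean TPM, Cpt1a (43.84 and 40.77) and Plin2 (22.46 and 15.97), were not called. Macrophages and fat cells express Fabp4 and Cd36 too. The macrophage list and the fat cell or stroma list had higher sums in library 2, as given above. The part of these cells in the PPAR list was not tested. Of 17 ROR and clock genes around Rora and Nfil3, 14 were detected, led by the clock repressors Cry1 (29.27 and 46.33) and Nr1d2 (29.62 and 39.62), and the 5 called of 17, Rorb, Nr1d1, Npas2, Hlf and Per3, were higher in library 2 (against the same 31.0%).

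Of 13 genes of the interleukin-10 list 9 were detected, led by the kinase Jak1 (525.37 and 492.04) and by Stat3 (209.33 and 191.3), and Il10 was the 1 gene called. Il19, Il20, Il24 and Il22 had 0 counts in both libraries, while the receptor chains Il10ra (30.62 and 31.95) and Il10rb (79.72 and 89.27) were detected. All 13 genes of the Blimp-1 list were detected, led by Xbp1 (109.79 and 115.06), of the secretory programme, and Bach2 (51.55 and 48.35), which represses Prdm1. The 2 called, Prdm11 and Zfp683, were higher in library 2, and the rival factor Bcl6 had 14.94 and 11.43 TPM. All 18 other genes known from tissue regulatory T cells were detected, led by the costimulatory receptors Tnfrsf18 (344.14 and 369.22) and Tnfrsf4 (311.68 and 232.56). Klrg1 (8.52 and 27.49) was called higher in library 2, and the checkpoint receptor Pdcd1 (147.66 and 57.1) and Penk (207.87 and 67.78), which encodes an opioid precursor, higher in library 1.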

How the data were processed

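The authors deposited expected counts, TPM and FPKM of genes and transcripts, and the percent of each gene in each transcript, made from transcriptome alignments on mm10 with GENCODE M21, per the deposited description. The authors' small gene tables hold whole-number counts (mm10, GENCODE M4), as the deposited description says. The sources used here give no aligner or quantifier, and strand use is not stated, so overlapping genes are uncertain.

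Entries that name no GENCODE gene held 0.201% of counts in library 1 and 0.235% in library 2 and were left out. The small tables held 7903531 and 6964781 counts in matched genes. Ratios had 0.5 counts added per library, and intervals are exact Clopper-Pearson intervals at 95%. With 1 group, edgeR's quasi-likelihood test was not used. TMM factors (edgeR 4.0.16) and size factors (DESeq2 1.42.0, R 4.3.3) were alternatives. The test was run on simulated counts that held counting error and planted changes only. That run could not check the test against PCR copies or differences in cell content.

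The 9 genes and all lists were chosen with earlier results of these data known. By rule, the 2 highest genes of each list outside the 9, genes at 0 counts and the highest marker were named. The other list genes were named after their values were seen.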

Additional observations from a re-analysis of the deposited data

How the results depend on the processing

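Of the 9 genes 8 were detected, and 6 to 9 under the other thresholds, FPKM and the small table, and 8 to 9 with each library alone. The number called between libraries was 3, also with TMM factors, DESeq2 size factors and no minimum of counts, 2 with at least 100 counts or in the small table, and 7 at 1.5-fold, where 11315 of the 24253 genes tested were called too. Over all genes the 9541 calls among 24253 genes tested became 1775 among 12609 with at least 100 counts, and 3512 among 14432 in the small table. The minimum of 100 counts changed only which genes were tested and the adjustment over them. The cause of the drop in the small table was not tested. With at least 100 counts summed over the libraries, Areg (10 and 45 expected counts) was not among the genes tested. The growth factor list had 9 genes detected at 0.1 TPM and 4 to 7 with each library alone, against 3, and the clock list had 9 at 5 TPM, against 14. Of 36 alternative ratios of the 9 genes 35 kept their direction and their side of the call, and the other was that of Il10 in the small table (0.53). In expected counts, which weight long transcripts more, the leading share was 99.3% for Gata3, 90.4% for Prdm1, 96.3% for Ahr and 66.9% for Rora. No paired analysis was possible because there was 1 group. Depth limits the values of Areg, at 10 counts in library 1, and of transcripts with few counts.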
